A study of Homo sapiens with 6 samples.

Results

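The genes described here are the replication-dependent histone genes, the clustered genes that carry HIST1H to HIST4H symbols in the deposited table and are listed as protein coding. By this rule 71 of the 58735 genes listed were members, 6 of class H1, 17 of H2A, 18 of H2B, 15 of H3 and 15 of H4. They were measured by RNA-seq in HCT116, an established human colorectal cancer cell line of wild-type genotype by its label. There were 3 control-transfected libraries (CTR) and 3 libraries transfected with 50 nM miR-8485 mimics, a synthetic RNA that raises the level of the microRNA, collected after 48 h. The comparison asks what the transfected mimic changes in the transcriptome of these cells. All libraries came from this 1 cell line, and what the CTR cells received beyond a control is not given in the labels. The libraries were labelled as independent biological replicates.

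Core histones form the octamer around which nuclear DNA is wound, and H1 histones bind the linker DNA between octamers. Replication-dependent histone genes are made mainly in S phase, when new chromatin has to be assembled. Their mRNAs lack introns in their main form and end, in place of a poly(A) tail, in a conserved stem-loop that is bound by SLBP, and many of the genes can also give longer, polyadenylated transcripts from sites downstream of the stem-loop. Histone variants that are made throughout the cell cycle, such as those of H2AFZ and H3F3B, come from genes outside the clusters and have ordinary poly(A) tails.

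The mRNA ends are printed because they decide which form of a histone mRNA carries a tail. In the GENCODE release 44 annotation of hg38, 66 of the 71 members had a canonical coding sequence, and 63 of these held the stem-loop motif within 150 bases after it, searched on the gene's strand as GG, 2 free bases, CTTTT, 1 free base, AG, 2 free bases and CC. The same search found it in 7 of 19967 other protein-coding genes (0.0351%), among them H2AFX. The stem-loop began 22 to 62 bases after the stop codon, with a median of 35. Capitals mark the stem-loop in these windows of 5 members with a mean of at least 1 FPKM, the unit of fragments scaled to gene length and library size, at hg38 chr6:27146361-27146386 (minus strand), chr6:26055739-26055764 (minus), chr6:26158582-26158607 (plus), chr6:27139649-27139674 (plus) and chr1:149887386-149887411 (plus).
HIST1H2BK: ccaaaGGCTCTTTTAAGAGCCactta
HIST1H1C: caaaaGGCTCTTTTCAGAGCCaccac
HIST1H2BD: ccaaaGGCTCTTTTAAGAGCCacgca
HIST1H4I: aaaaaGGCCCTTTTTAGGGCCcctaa
HIST2H2AC: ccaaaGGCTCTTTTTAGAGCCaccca
The form in HIST1H1C was the most common, with 36 of the 63 members, and that in HIST2H2AC occurred in 1 member. HIST1H3E was the only member with a mean of at least 1 FPKM in which the motif was not found in this window. HIST1H2BK and HIST1H2BD shared 1 stem-loop form with each other, and the bases that differed lay in the flanks.

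Most of the 71 genes were listed at 0 or at low values in these libraries. In every library 19 members were listed at 0, which stands for no counted fragment. Such a count in 1 library still allows an expected count of up to 3 fragments there. A listed 0 does not show that a gene was not expressed. RNAs that every cell uses, such as RN7SK and RMRP, were also listed at 0. HIST2H3A and HIST2H3C, both at 0, have identical coding sequences, and each overlaps an H4 gene on the opposite strand. Identical coding sequences also occurred above 0, in HIST1H4J and HIST1H4K with 13 and 19 fragments in all. Several other members at 0 overlap another listed gene, as do some above 0. The part of sequence likeness or overlap in the listed 0 values was not tested. Another 40 members had a mean above 0 but under 1 FPKM, with a highest mean of 0.914 FPKM for HIST1H2BJ, and 12 members had a mean of at least 1 FPKM and were tested. These 12 held 93.7% of the fragments on members. Of the 12, HIST1H2AG reached this level only through the miR-8485 libraries, since its CTR mean was 0.697 FPKM, while 11 members had a CTR mean of at least 1 FPKM.

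Summed over all 71 members, CTR libraries held 124, 119 and 118 FPKM and miR-8485 libraries 256, 276 and 279 FPKM. The groups did not overlap, and the mean rose from 120 ± 3.54 to 270 ± 12.6 FPKM (SD, n = 3), a ratio of 2.24. These sums rested on 1503 to 1695 fragments per CTR library and 3546 to 3982 per miR-8485 library. In such bulk samples, a change in the share of cells that make histone mRNA and a change in its amount per cell cannot be told apart.

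Each class had a higher sum with miR-8485 than in CTR, and in no class did the libraries of the groups overlap. Class H2B was the most abundant, with a mean of 61.3 ± 2.94 FPKM in CTR and 154 ± 10.98 FPKM in miR-8485 libraries (SD, n = 3), a ratio of 2.51. Class H2A went from 24.2 ± 1.45 to 50.4 ± 2.65 FPKM, a ratio of 2.08. Class H1 went from 23.5 ± 4.75 to 42.2 ± 3.35 FPKM, a ratio of 1.80. The core classes H3 and H4 were low beside them, although an octamer holds as many H3 and H4 as H2A and H2B molecules. Class H4 went from 6.79 ± 0.520 to 14.6 ± 1.65 FPKM and class H3 from 4.62 ± 1.03 to 8.86 ± 1.19 FPKM, ratios of 2.15 and 1.92.

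**Figure D1:**
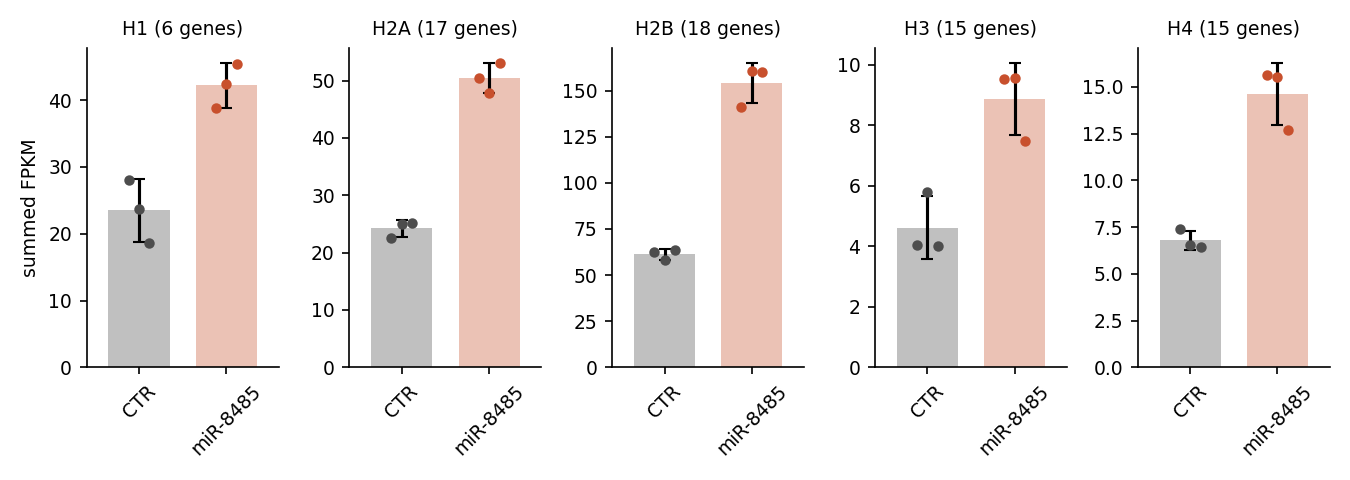
Summed FPKM of the members of each histone class, with 1 panel per class and an axis from 0 in each; points are the 3 libraries of a group, bars their mean and error bars the SD. The miR-8485 libraries lie above all CTR libraries in every panel, with class H2B at 154 against 61.3 FPKM and class H3 at 8.86 against 4.62 FPKM.

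Each sum was carried by few genes. HIST1H1C made up 97.1% of the H1 sum in CTR, HIST1H4I 83.7% of the H4 sum, HIST1H2BK 78.1% of the H2B sum, HIST3H2A 49.0% of the H2A sum and HIST1H3H 32.6% of the H3 sum. Without the highest member the log2 ratio of the class sums went from 0.85 to -0.13 for H1 and from 0.94 to 0.43 for H3, and stayed above 1 for H2B and H4. For H2A it stayed positive. The H4 genes left without HIST1H4I were all under 1 FPKM, so that their ratio rests on few fragments. The 40 members above 0 but under 1 FPKM summed to 7.87 ± 2.02 FPKM in CTR and 9.67 ± 1.26 FPKM in miR-8485 libraries (SD, n = 3), and there the groups overlapped. In fragments, which give longer genes more weight, the same 40 members had 118 to 147 per CTR library and 182 to 222 per miR-8485 library, without overlap. A large part of that difference came from 1 gene, HIST1H2BN, with 24 to 27 fragments per CTR library and 56 to 83 per miR-8485 library.

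Of the 12 tested members, 11 were upregulated with miR-8485 and 0 downregulated at an adjusted p under 0.05 (limma on log2 FPKM, Benjamini-Hochberg over 12349 genes). Among all 12349 genes tested, 29.1% were called up and 30.5% down. With a log2 fold change of at least 1 required as well, 8 members were called up and 0 down, against 3.58% and 4.49% of all genes tested. The median log2 fold change was 1.19 over the 12 members and -0.0041 over all genes tested. In the 12 genes, 10 had all 3 miR-8485 libraries above all CTR libraries and 0 had them below, against 32.5% and 34% of all genes tested. The 11, the 8, the 10 and the median all include HIST1H2AG, which passed the filter only through the miR-8485 libraries. Because a filter on the level favours genes that are high in either group, the fit of all genes above 0 was read as well. There 10 of 52 members were called up and 0 down, with a median log2 fold change of 0.41, against 10.8% and 11.3% of all genes and a median of 0.0023. At an unadjusted p under 0.05 that fit had 15 members up and 1 down, against 15.4% and 15.1% of all genes.

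Among the linker histones, HIST1H1C (chr6:26055787-26056428), which encodes histone H1.2, was the only H1 gene with a mean of at least 1 FPKM. It measured 27.5, 23.2 and 17.7 FPKM in CTR and 38.3, 41.7 and 44.7 FPKM in miR-8485 libraries. The groups did not overlap, with a spread in CTR wider than that in the miR-8485 libraries. Its log2 fold change was 0.88 (SE 0.15, adjusted p = 0.00153). The other 5 H1 genes were all above 0 in some library but under 1 FPKM, and none was called in any fit. The cell cycle independent H1 gene H1F0, which lies outside the clusters, moved the other way, from 304 ± 8.81 to 135 ± 5.62 FPKM (SD, n = 3, log2 fold change -1.16, adjusted p = 2.9e-06).

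In class H2A, HIST3H2A (chr1:228456979-228457873) was the highest member. It measured 9.79, 13.2 and 12.6 FPKM in CTR and 27.0, 23.7 and 27.2 FPKM in miR-8485 libraries. Every miR-8485 library was above the highest CTR library, and the log2 fold change was 1.13 (SE 0.12, adjusted p = 0.000137). HIST1H2AC (chr6:26124145-26139116) measured 8.05, 6.69 and 6.03 FPKM in CTR and 17.7, 17.6 and 19.7 FPKM in miR-8485 libraries. The groups lay well apart, with a log2 fold change of 1.40 (SE 0.11, adjusted p = 3.4e-05). HIST1H2AG (chr6:27133042-27135291) measured 1.04, 0.590 and 0.467 FPKM in CTR and 1.63, 1.57 and 2.19 FPKM in miR-8485 libraries. The groups were separate at this low level too, with 19 to 42 fragments per CTR library behind the values and a log2 fold change of 1.30 (SE 0.29, adjusted p = 0.00609).

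HIST2H2AC (chr1:149886975-149887364) was the exception among the 12. It measured 3.13, 2.41 and 3.12 FPKM in CTR and 2.14, 2.84 and 2.83 FPKM in miR-8485 libraries. The groups overlapped, and the log2 fold change of -0.15 (SE 0.15, 95% interval -0.49 to 0.20, adjusted p = 0.423) did not pass the test. Its values rested on 15 to 22 fragments per library, and the standard error was 0.37 in the voom fit of those fragments. When the trend of fold change with gene length was removed, it was called down (log2 fold change -0.41, adjusted p = 0.0446).

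In class H2B, HIST1H2BK (chr6:27146418-27146798) was the highest of all 71 genes and alone held 39.7% of their summed FPKM in CTR. It measured 48.2, 42.4 and 52.9 FPKM in CTR and 103, 118 and 119 FPKM in miR-8485 libraries. The lowest miR-8485 library was above the highest CTR library, and the log2 fold change was 1.25 (SE 0.09, adjusted p = 2.9e-05). HIST1H2BD (chr6:26158146-26171349) measured 9.23, 10.5 and 6.53 FPKM in CTR and 30.4, 35.7 and 33.6 FPKM in miR-8485 libraries. It had the highest fold change of the 12, at a log2 value of 1.94 (SE 0.16, adjusted p = 5.1e-05). In the table, HIST1H2BD overlaps the genes LARP1P1 and AL353759.1, while the other 11 tested members overlap no listed gene.

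The 2 remaining H2B genes were called up with less margin. HIST1H2BC (chr6:26114873-26123926) measured 1.53, 1.13 and 1.26 FPKM in CTR and 1.74, 1.92 and 1.64 FPKM in miR-8485 libraries. The groups did not overlap, but the log2 fold change was 0.42 (SE 0.15, adjusted p = 0.0469). The values rested on 17 to 29 fragments per library, and voom at 10 fragments or more did not call the gene (SE 0.34, adjusted p = 0.349). The call was lost without CTR replicate 2 (adjusted p = 0.126) or 3 (0.103) or miR-8485 replicate 1 (0.098), 2 (0.142) or 3 (0.068), in the fit of all genes above 0 (0.1005), and with the gene length trend removed (log2 fold change 0.16, adjusted p = 0.439). HIST2H2BE (chr1:149884459-149886652) measured 1.37, 0.983 and 1.06 FPKM in CTR and 1.83, 1.34 and 2.13 FPKM in miR-8485 libraries. Here miR-8485 replicate 2 lay below CTR replicate 1, so the groups overlapped, and the log2 fold change was 0.58 (SE 0.21, adjusted p = 0.0435). That call was lost without CTR replicate 2 (adjusted p = 0.113) or 3 (0.104) or without miR-8485 replicate 1 (0.116) or 3 (0.146), and in the fit of all genes above 0 (0.109). Both calls were also lost when values were rescaled to TPM, which sums to the same total in every library, at adjusted p = 0.141 for HIST1H2BC and 0.097 for HIST2H2BE.

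In class H3, both tested genes were upregulated. HIST1H3H (chr6:27810064-27811300) measured 1.48, 2.06 and 0.983 FPKM in CTR and 5.04, 4.96 and 3.99 FPKM in miR-8485 libraries. The groups did not overlap, and the log2 fold change was 1.62 (SE 0.24, adjusted p = 0.000816). HIST1H3E (chr6:26224199-26227473) measured 1.39, 0.949 and 1.15 FPKM in CTR and 3.35, 3.80 and 3.12 FPKM in miR-8485 libraries. These groups did not overlap either, with a log2 fold change of 1.49 (SE 0.15, adjusted p = 0.000137). The other 13 H3 genes were at 0 or under 1 FPKM, and none was called in any fit.

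In class H4, HIST1H4I (chr6:27138588-27139881) gave most of the sum and was the only tested gene. It measured 6.09, 5.47 and 5.51 FPKM in CTR and 12.2, 12.6 and 10.6 FPKM in miR-8485 libraries. The replicates were close to each other in both groups, which did not overlap, and the log2 fold change was 1.04 (SE 0.08, adjusted p = 3.6e-05).

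**Figure D2:**
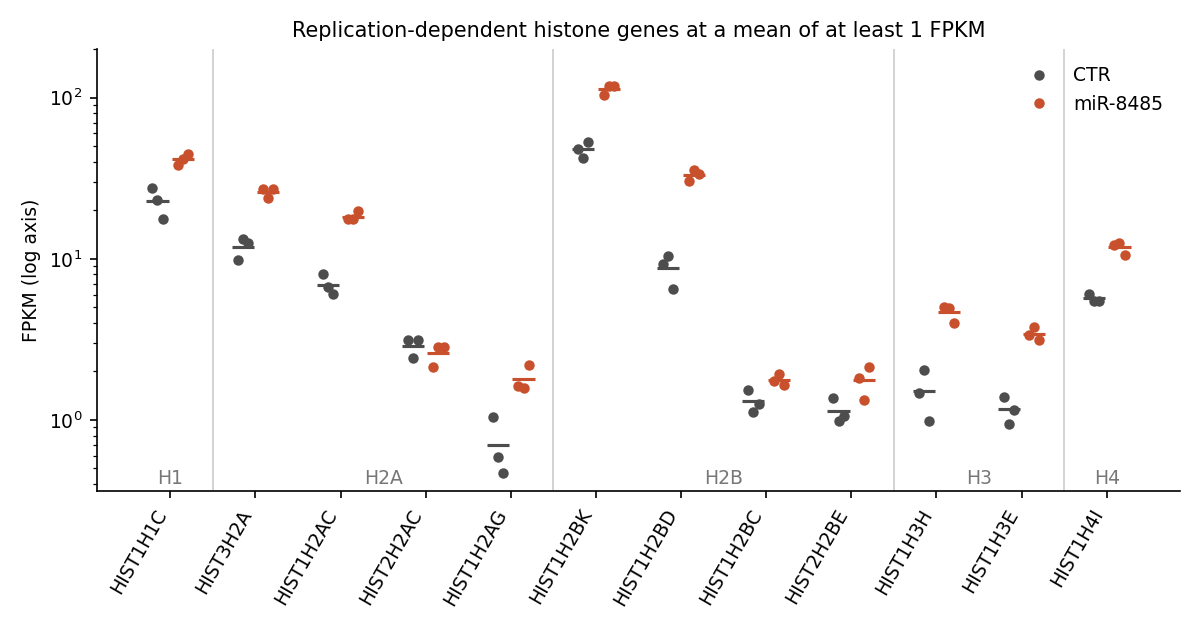
FPKM on a log axis of the 12 members with a mean of at least 1 FPKM, grouped by histone class; points are libraries, grey for CTR and orange for miR-8485, and lines are group means. The groups overlap for HIST2H2AC and HIST2H2BE and are separate for the other 10 genes, from HIST1H2AG at 0.697 and 1.80 FPKM to HIST1H2BK at 47.8 and 114 FPKM.

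Below 1 FPKM, the only member called in the fit of all genes above 0 was HIST1H2BN (chr6:27837760-27865798). It measured 0.243, 0.252 and 0.272 FPKM in CTR and 0.630, 0.838 and 0.537 FPKM in miR-8485 libraries, from 24 to 83 fragments per library. The groups did not overlap, and the log2 fold change was 1.09 (SE 0.28, adjusted p = 0.0332), but the gene overlaps HIST1H2AK and HIST1H2AL in the table, so fragments of these genes cannot be told apart by position. The other low genes were also tested on the fragments recovered from the FPKM values with voom, which weights genes by their counts. Of the 37 members with at least 10 fragments, 12 were called up and 0 down, against 20.6% up and 21.1% down among 21396 genes. That fit added HIST1H2BJ, and a voom fit of all 31768 genes above 0, where 13% were called up, added HIST1H4K. Both were named after their values were seen. HIST1H2BJ measured 0.409, 1.11 and 0.233 FPKM in CTR and 1.35, 1.40 and 0.995 FPKM in miR-8485 libraries, with overlapping groups (adjusted p = 0.0365 with voom at 10 fragments or more, 0.0611 with voom on all genes above 0 and 0.153 with limma on them). HIST1H4K had 0, 3 and 0 fragments in CTR and 5, 6 and 5 in miR-8485 libraries (adjusted p = 0.0596 with voom at 10 fragments or more, 0.0154 with voom on all genes above 0 and 0.0649 with limma on them), and its coding sequence is identical to that of HIST1H4J. Of the 40 members above 0 but under 1 FPKM, 24 had the higher mean with miR-8485 and 16 the lower.

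By genomic cluster, the 55 HIST1 genes of chromosome 6 went from 103 to 239 FPKM in sum and held 9 of the 12 tested members. The 3 HIST3 genes of chromosome 1 went from 12.4 to 26.2 FPKM, nearly all of it HIST3H2A. The 12 HIST2 genes, in another cluster on chromosome 1, were at 5.06 FPKM in CTR and 5.28 FPKM in miR-8485 libraries, where HIST2H2AC did not pass the test and the call of HIST2H2BE was not kept in all fits. The single HIST4 gene was under 0.1 FPKM in both groups. Whether the HIST2 cluster differed from the others was not tested.

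Many H2A and H2B genes lie head to head and share the stretch between their starts. By the gene ends in the table, 12 pairs of members started within 1000 bases of each other in opposite directions, and 5 of the pairs held a tested gene. In some pairs the levels were far apart. HIST1H2BK stood at 47.8 FPKM in CTR and its partner HIST1H2AH at 0.238 FPKM, 331 bases away, and HIST3H2A at 11.9 FPKM beside HIST3H2BB at 0.211 FPKM. The fold changes of partners differed in size as fitted, and their difference was not tested. Across a shared stretch of 219 bases, HIST1H2AC had a log2 fold change of 1.40 and HIST1H2BC of 0.42, and the ratio of their means was 5.31 in CTR and 10.4 in miR-8485 libraries. In the pair HIST2H2AC and HIST2H2BE the log2 fold changes were -0.15 and 0.58. In the pair HIST1H2AG and HIST1H2BJ both were above 1, at 1.30 and 1.18, although the call of HIST1H2BJ depended on the fit.

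The promoters are shown because these pairs share them. RefSeq promoters (250 bases before to 50 after the start, build GRCh38.p14) were matched to 61 members, among them all 12 tested. The octamer ATTTGCAT, searched on both strands, was in 26 of the 61 (42.6%) and in 1.71% of 27244 other promoters. It followed the class, with 11 of 14 H2A and 14 of 18 H2B promoters, 1 of 10 H3 promoters and 0 of 6 H1 and 0 of 13 H4 promoters. Promoters were counted, not separate sites, so that an octamer in a shared stretch counts for each gene that shares it. The window of the 1 H3 promoter with an octamer was the same as that of an H2A gene. CCAAT, on both strands, was in 83.6% of member promoters and 35.6% of the others, in all of classes H1, H2A, H2B and H3 and in 3 of 13 for H4. TATAAA, on both strands, was in 65.6% against 11.8%. No member promoter held 2 of these motifs that overlapped each other. Capitals mark the octamer in these windows, at chr6:27146886-27146915 (minus strand), chr6:26124031-26124060 (plus), chr1:149886710-149886739 (plus) and chr6:27132824-27132853 (plus).
HIST1H2BK: ctcttcaccttATTTGCATgagaggtccta
HIST1H2AC and HIST1H2BC: tgggcagagctATGCAAATgaggtatgaaa
HIST2H2AC and HIST2H2BE: ataaccaccttATGCAAATtagggctccga
HIST1H2AG and HIST1H2BJ: tagaatcgcttATGCAAATaaggtgaagag
In the shared windows the 8 capitals read ATTTGCAT on the H2B strand. HIST2H2AC, which did not pass the test, held the motif, and the upregulated HIST1H2BD and HIST3H2A had none in this window.

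The seed of the mimic pairs with the letters TGTGTGT, and few histone mRNAs hold them. Capitals mark the seed, bases 2 to 8 of the 17 bases given for the transfected RNA in the study's methods.
miR-8485 mimic: cACACACAcacacguau
In the longest GENCODE transcript, read on its own strand, TGTGTGT was in 4 of 66 members (6.06%), and in 28.2% of 14425 other protein-coding genes whose longest transcript was in the same range of 386 to 5002 bases. Most histone transcripts are at the short end of that range. Sites were counted at every start, so that overlapping matches in a run of TG repeats count as several. Counted by length, the 14 sites in members came to 0.235 per kilobase and those in the other genes to 0.267. HIST3H2BB alone held 11 of the 14, and without it members had 0.055 per kilobase. How many separate stretches such counts stand for was not tested. HIST1H3H and HIST2H2BE held 1 site each, and both were called up. HIST3H3 held 1 site, measured 0.346, 0.690 and 0 FPKM in CTR and 0.116, 0 and 0 FPKM in miR-8485 libraries from 10 fragments in all, and was not called (adjusted p = 0.339 in the limma fit of all genes above 0). HIST3H2BB held its sites in a transcript of 5002 bases and was at 0.211 and 0.159 FPKM in CTR and miR-8485 libraries.

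The levels were also set against the 3′ end that the table's gene model gives each member. Whether the libraries were selected for poly(A) tails is not given in the sources used here. Of 10 RNAs fixed as lacking a tail, 7 were listed at 0 in every library, among them RN7SK and RMRP, while RN7SL2 was at 229 ± 14.3 and 224 ± 39.2 FPKM (SD, n = 3). SNORD3A and RNY1 were under 0.4 FPKM in both groups. In 24 of the 63 members with a stem-loop, the gene model ended over 100 bases past it, and 8 of these (33.3%) had a mean of at least 1 FPKM. In the other 39 it was 3 (7.69%), namely HIST1H2BK, HIST1H1C and HIST2H2AC. For 33 members the gene model ended before the stem-loop did, and for HIST1H2BK, HIST1H1C and HIST2H2AC the counted stretch was that upstream of it. These distances run along the genome and include introns. The largest past the stem-loop among tested members were those of HIST1H2AC, at 14432 bases, and HIST1H2BD, at 12747 bases. The gene lengths behind their FPKM were only 1668 and 871 bases. The part that tailed and untailed forms have in these levels or in the fold changes was not tested.

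**Figure D3:**
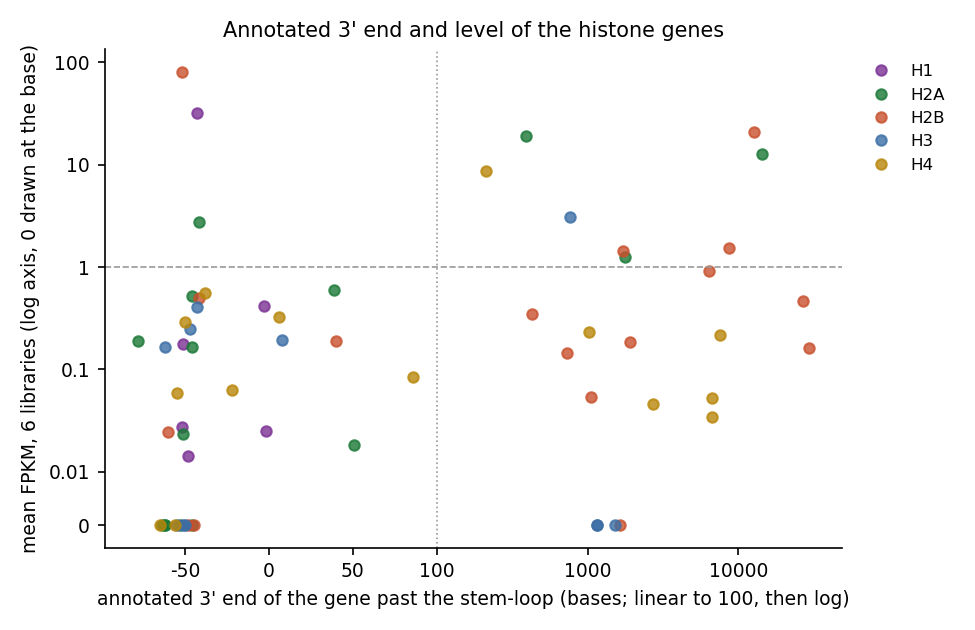
Mean FPKM over the 6 libraries (log axis, members at 0 drawn at the base) against the distance in bases from the stem-loop to the annotated 3′ end of the gene, for the 63 members with a stem-loop; colours are histone classes, the dashed line marks 1 FPKM and the dotted line 100 bases. Distances run along the genome and include introns. Right of the dotted line 8 of 24 members are at or above 1 FPKM, and left of it 3 of 39.

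Coding sequences within a class are alike, so that fragments could be exchanged between genes where the counting allowed it. Each of the 12 tested members was compared with its class among the 66 members that had a canonical coding sequence. The longest exact run shared was 35 bases (HIST1H1C and HIST1H3H) to 140 bases (HIST2H2BE), and HIST1H2BK shared 90 bases with HIST1H2BO. Members without such a sequence were not compared, among them H2A genes of the HIST2 cluster, which also holds HIST2H2AC. Longer runs shared with those are therefore possible. How fragments that map to several genes were counted is not given in the sources used here. An exchange within a class leaves the class's summed fragments as they are but can move its summed FPKM, since members differ in length.

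Set beside the clustered genes, the replication-independent histone variants moved mostly down. Of the 11 of 12 variants that were tested, 2 were called up (18.2%) and 7 down (63.6%), with a median log2 fold change of -0.38. Among all genes tested, 29.1% were called up and 30.5% down. H2AFZ, the H2A.Z variant, went from 229 ± 8.24 to 164 ± 8.56 FPKM (SD, n = 3, log2 fold change -0.48, adjusted p = 0.000181). H2AFX, the variant phosphorylated at DNA breaks and the only gene of this list whose mRNA held the stem-loop, went from 166 ± 5.17 to 114 ± 1.07 FPKM (log2 fold change -0.54, adjusted p = 3.2e-05). The 2 genes for histone H3.3 moved in opposite directions. H3F3A rose from 64.3 ± 2.12 to 115 ± 2.31 FPKM (log2 fold change 0.84, adjusted p = 6.8e-06), and H3F3B fell from 173 ± 4.44 to 119 ± 2.95 FPKM (log2 fold change -0.54, adjusted p = 3.4e-05). H2AFJ was the other variant called up, from 3.62 ± 0.965 to 6.71 ± 0.826 FPKM (log2 fold change 0.90, adjusted p = 0.00331). Summed as FPKM, the 71 members made up 10.1% of the total of members and variants in CTR and 25.8% in miR-8485 libraries.

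**Figure D4:**
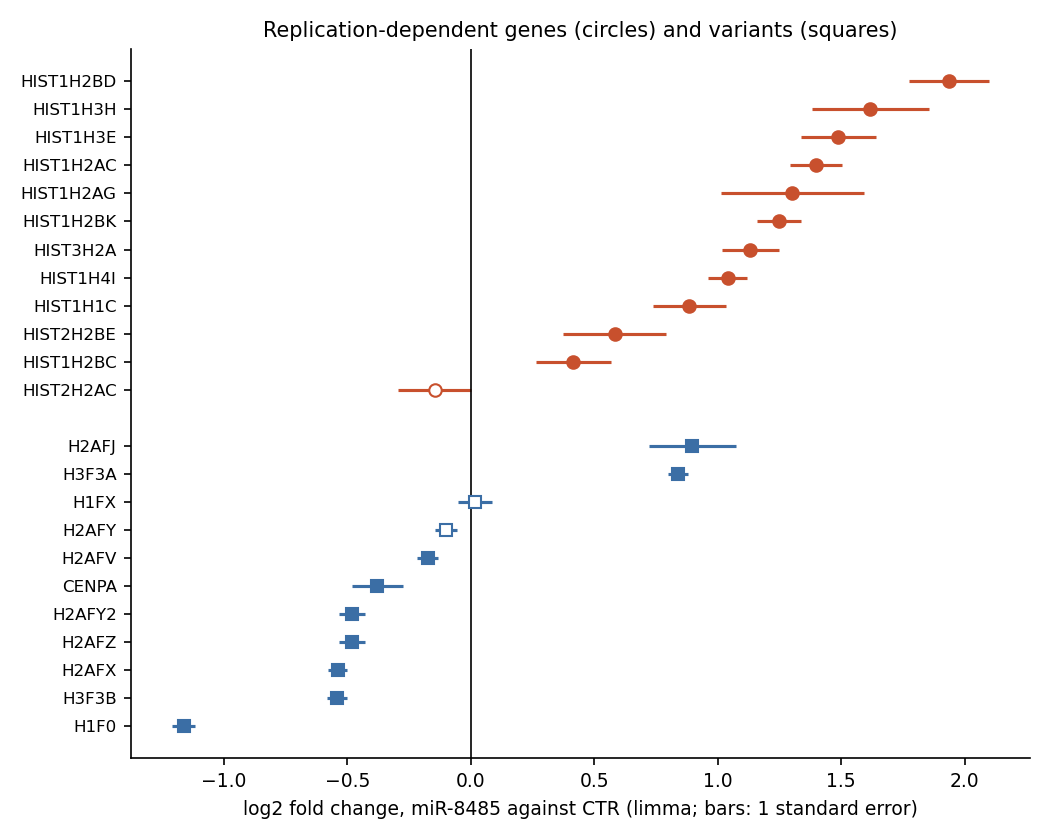
Log2 fold change of miR-8485 against CTR with 1 standard error, for the 12 tested replication-dependent genes (circles) and the 11 tested variants (squares); filled symbols have an adjusted p under 0.05. The circles run from -0.15 for HIST2H2AC to 1.94 for HIST1H2BD, and the squares from -1.16 for H1F0 to 0.90 for H2AFJ.

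The genes that make and remove histone mRNA were called in both directions, at shares close to or below those of all genes tested. Of 25 tested, 7 were called up (28%) and 6 down (24%), against 29.1% and 30.5% of all genes tested. Their median log2 fold change was -0.02. SLBP, the protein that binds the stem-loop, fell from 65.3 ± 7.13 to 49.5 ± 3.07 FPKM (SD, n = 3, log2 fold change -0.39, adjusted p = 0.00487). NPAT, the coactivator of histone gene transcription at histone locus bodies, was at 2.13 ± 0.303 and 1.73 ± 0.098 FPKM and did not pass the test (log2 fold change -0.28, adjusted p = 0.106). Of the genes called up, the largest changes were those of CTIF, a translation factor for newly capped mRNA, at a log2 fold change of 0.87, HINFP, an activator of H4 genes, at 0.54, and MIF4GD, a partner of SLBP, at 0.50. Of those called down they were CASP8AP2, needed for histone gene expression, at -0.59, and ERI1, a nuclease that trims the stem-loop, and CSTF2, a cleavage factor, at -0.51 each.

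The S phase genes, with which histone mRNAs normally rise and fall in the cell cycle, were mostly downregulated. Of the 41 of 42 that were tested, 31 were called down (75.6%) and 1 up (2.44%), against 30.5% and 29.1% of all genes tested. Their median log2 fold change was -0.58. PCNA, the sliding clamp of the replication fork, fell from 206 ± 14.8 to 134 ± 5.12 FPKM (SD, n = 3, log2 fold change -0.62, adjusted p = 0.000108). The largest falls were those of E2F8, a cell cycle repressor of transcription, at a log2 fold change of -1.73, RRM2, a subunit of ribonucleotide reductase, at -1.29, and CLSPN, a checkpoint adaptor, at -1.24. The gene called up was UNG, a DNA glycosylase, at 0.83. SLBP and CASP8AP2 are in both this list and that of histone mRNA production and decay.

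**Figure D5:**
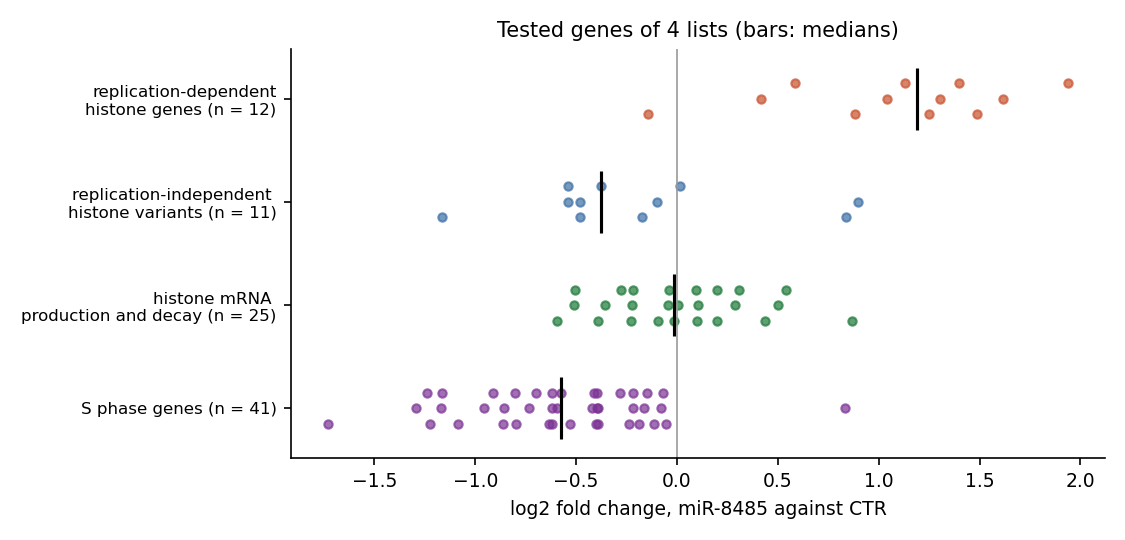
Log2 fold change of miR-8485 against CTR for each tested gene of 4 lists, with black bars at the medians. The medians are 1.19 for the 12 replication-dependent histone genes, -0.38 for the 11 variants, -0.02 for the 25 production and decay genes and -0.58 for the 41 S phase genes, against -0.0041 for all genes tested.

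The libraries held 17473874 to 18480047 fragments on listed genes. The epithelial markers of the line were all present, with group means from 19.0 FPKM for CDH1 to 1147 FPKM for KRT19. Of the 6, 4 were called down and 0 up, against 30.5% and 29.1% of all genes tested. Of 10 markers of blood cells, fibroblasts and endothelium, 9 were under 0.5 FPKM in both groups, and COL1A1 went from 4.25 ± 0.173 to 6.31 ± 0.077 FPKM (SD, n = 3, log2 fold change 0.56, adjusted p = 0.000133). The part of these markers in the histone results was not tested. Rescaling to TPM shifted the median log2 fold change of all genes to -0.12, and the calls from 3593 up and 3769 down to 2614 up and 4723 down. Relative to that scale 9 of the 12 histone genes remained called up, with HIST1H2BC and HIST2H2BE lost.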

How the data were processed

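RNA-seq was performed on 3 CTR and 3 miR-8485 libraries of HCT116 cells, grouped by their labels. The authors mapped the reads to hg38 with HISAT2 2.0.5 and counted fragments per gene with featureCounts 1.5.0-p3; the annotation release, strand setting, treatment of multi-mapping fragments and poly(A) selection are not given in the sources used here. The deposited values are FPKM per library. The count table was not used here, but 100% of the FPKM values were whole multiples of 1 fragment (tolerance 0.05), which gave the fragments behind each value.

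Genes with a mean of at least 1 FPKM (12349) were tested with limma 3.58.1 (R 4.3.3, variance trend) on log2(FPKM + 0.1), two-sided, the p-values being adjusted over every gene tested (Benjamini-Hochberg) and read at a threshold of 0.05. Fold changes are on the log2(FPKM + 0.1) scale, which understates those of low genes. Genes under the filter were read from a limma fit of all 31768 genes above 0 and from voom on the recovered fragments of 21396 genes with at least 10 fragments. No count model was fitted. On simulated libraries of the same depths, limma recovered 96 of 99 genes changed by a log2 fold of 1 and 96 of 96 changed by 2, with 16 false calls among 12407 genes. The simulation gave every gene the same small spread between replicates. It changed few genes, all of them well covered and at 1 FPKM or more. These rates therefore do not describe low or more variable genes, or data in which many genes change. Python 3.11.15 was used for the other steps. Stem-loops were searched in hg38 with GENCODE 44, and table coordinates are those of the file. The number of measured columns without a sample was 0. Sums, SDs and counts cover the 6 libraries only, and limits from fragments cover counting error only.

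Members with a mean of at least 1 FPKM were all named, those below it only where the fit of all genes above 0 called them, and from other lists up to 3 genes called up and 3 called down, by size of change, plus SLBP, NPAT, H2AFZ, H2AFX, H3F3A, H3F3B and PCNA; genes paired with a tested member, overlapping one or holding a seed site were named for that, and others outside this rule are marked in the text. The members and lists were chosen with earlier results of these data known. Of 105 listed genes, 1 was matched by an older symbol. Alternatives covered pseudocounts, filters, scalings, trends of length and GC, a block for the replicate number, voom and each library left out.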

Additional observations from a re-analysis of the deposited data

How the results depend on the processing

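The number of members called up stayed within 9 to 12 and the number called down at 0 under each alternative, except that requiring a log2 fold change of at least 1 left 8 called up (HIST1H1C, HIST1H2BC and HIST2H2BE lost), that a filter at 5 FPKM left 6 members to test, all 6 called up, and that removing the gene length trend called 1 down (HIST2H2AC). The filter at 5 FPKM left 2303 genes called up and 2417 down of 6878. Leaving out each library in turn gave 9 to 11 members up and 0 down, 3124 to 3561 genes up and 3382 to 3663 down, and a log2 ratio of the member sum of 1.14 to 1.20. Replicate numbers did not pair the libraries, since same-numbered libraries correlated at -0.064 to 0.067 in their deviations; with a replicate block 10 members were called up and 0 down, with HIST1H2BC lost at adjusted p = 0.0765, and 3634 genes up and 3754 down. On the TPM scale the log2 ratio of summed levels was 0.94 for H2A, 1.21 for H2B and 1.05 for all members, and on summed fragments scaled only to library size, 1.22 for H2A and 1.38 for H3. Without the highest member it was -0.13 for H1, 1.59 for H2B, 0.43 for H3 and 1.35 for H4; the cause was not tested. The voom fit of all genes above 0 was added after seeing the data. Apart from that fold requirement, HIST1H2BC lost its call in 12 alternatives and HIST2H2BE in 9, and the other 9 called members lost theirs in none of the alternatives that tested them. Depth limits the 15 members above 0 with under 10 fragments in total, and HIST2H2AC and HIST1H2BC, with 117 and 140.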
